A study of Homo sapiens with 20 samples.

Results

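The zinc finger genes of chromosome 19 were followed in 5 gastric cancer cell lines before and after treatment with decitabine (DCB). They were taken as all rows of the expression table that were annotated as protein coding, lay on chromosome 19 and had a symbol starting with ZNF, which gave 250 genes of the 60232 in the table and of the 19896 protein-coding genes. Another 266 protein-coding ZNF genes lay on other chromosomes, and chromosome 19 held 1219 further protein-coding genes. All 250 genes passed the filter on low values and were tested, and none was listed at 0 in every library.

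C2H2 zinc finger proteins bind DNA through arrays of fingers, and many of the chromosome 19 genes also encode a KRAB domain, which recruits the corepressor TRIM28 and with it the histone methyltransferase SETDB1. Proteins of this class are best known for silencing transposable elements and for keeping imprinted regions methylated. Their genes arose largely by tandem duplication and therefore stand in clusters, and promoter methylation of single members is well known in tumors. Decitabine, a cytidine analog, becomes part of newly made DNA and captures the methyltransferases there, so that methylation is lost as cells divide.

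The lines were YCCEL1 and SNU719, which carry Epstein-Barr virus (EBV+), and AGS, HGC27 and SNU16, which do not (EBV-). By the study's text YCCEL1, SNU719 and AGS have the CpG island methylator phenotype (CIMP+), while HGC27 and SNU16 do not (CIMP-). All cells were wild type and received either DCB or the solvent DMSO over 72 h, with 2 libraries per line and treatment and 20 libraries in all. Parts of the study's text name MKN74 in place of HGC27, and the labels, which give HGC27, were followed. Whether the 2 libraries of a group are separate cultures is not given in the sources used here. Each limma p-value for a line or a status difference reflects only how far such libraries differ. Each status is represented by 2 or 3 lines, and a line's other properties cannot be told apart from its EBV or CIMP status.

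Values were the deposited normalized counts, whose totals per library ran from 7764408 to 9321014, the DMSO median being 8525430 and the DCB median 8081173. All 6 epithelial markers checked were at a mean of 10 or more in YCCEL1, SNU719, AGS and SNU16. In HGC27 only 5 of the 6 were, and the list summed to between 119 and 188 in DMSO and between 492 and 615 with DCB, with 4 of the 6 higher, against 34639 or more in every DMSO library of the other lines. The 10 markers of immune, fibroblast and endothelial cells summed to between 11232 and 15301 in HGC27, where the fibroblast gene COL1A1 led, and to between 269 and 288 in DMSO and between 1952 and 2008 in DCB in AGS. In the other lines their sums were far lower but were also larger with DCB, between 6.67 and 31.6 in DMSO and between 57.0 and 80.9 in DCB in YCCEL1, 28.3 and 40.3 against 125 and 126 in SNU719, and 17.9 and 27.6 against 81.4 and 99.3 in SNU16. Over the 5 lines 8 of these 10 markers were higher with DCB and none was lower (limma). The part of these differences in the results below was not tested.

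Along the chromosome, 239 of the genes fell into 9 clusters, defined as runs of 5 or more neighbors with starts less than 1 Mb apart and named here by their first and last member. The large ones were ZNF557 to ZNF846 with 16 genes at chr19:7069703-9793180, ZNF653 to ZNF791 with 26 genes at chr19:11483427-12640098 and ZNF101 to ZNF254 with 37 genes at chr19:19668796-24129968 (all GRCh38). On the long arm followed ZNF565 to ZNF573 with 27 genes at chr19:36182276-37817300, ZNF575 to ZNF296 with 24 genes at chr19:43525497-45076587, ZNF175 to ZNF331 with 40 genes at chr19:51571283-53580269 and ZNF628 to ZNF446 with 59 genes at chr19:55476617-58481230. ZNF554 to ZNF77 and ZNF302 to ZNF792 held 5 genes each, and 11 genes were scattered. In 30 pairs the annotated spans of neighboring genes overlap, and since the sources disagree on whether the libraries kept strand, reads of such pairs may not be told apart.

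The promoter windows of 6 genes are shown as examples, chosen after the values were seen: ZNF560, ZNF229, ZNF420 and ZNF528, from 4 different clusters, were silent in at least 1 line and reopened with DCB, and ZNF257 and ZNF723, from the cluster ZNF101 to ZNF254, were silent and did not reopen. Each window runs from 250 bases before to 50 bases after the RefSeq transcription start (GRCh38.p14) and is written 5′ to 3′ on the gene's strand with CG dinucleotides in capitals. The windows lie at chr19:9498567-9498866 (minus strand) for ZNF560, chr19:44448423-44448722 (minus) for ZNF229, chr19:37078183-37078482 (plus) for ZNF420, chr19:52397599-52397898 (plus) for ZNF528, chr19:22052234-22052533 (plus) for ZNF257 and chr19:22832041-22832340 (plus) for ZNF723. The RefSeq start of ZNF420 lies 70576 bases inside the span that the expression table gives for the gene, and that of the other 5 within 106 bases of its start.
ZNF560: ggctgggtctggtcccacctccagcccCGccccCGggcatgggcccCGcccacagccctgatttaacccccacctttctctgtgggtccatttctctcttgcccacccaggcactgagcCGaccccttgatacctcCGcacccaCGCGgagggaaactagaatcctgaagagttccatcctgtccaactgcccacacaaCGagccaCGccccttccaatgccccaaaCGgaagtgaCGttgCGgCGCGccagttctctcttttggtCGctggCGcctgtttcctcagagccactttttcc
ZNF229: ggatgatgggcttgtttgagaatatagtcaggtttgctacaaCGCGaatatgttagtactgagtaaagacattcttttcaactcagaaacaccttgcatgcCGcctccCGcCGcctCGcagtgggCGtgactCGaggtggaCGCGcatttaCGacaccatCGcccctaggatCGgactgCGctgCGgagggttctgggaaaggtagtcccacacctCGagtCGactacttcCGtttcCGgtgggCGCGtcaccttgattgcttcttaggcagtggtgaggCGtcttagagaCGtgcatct
ZNF420: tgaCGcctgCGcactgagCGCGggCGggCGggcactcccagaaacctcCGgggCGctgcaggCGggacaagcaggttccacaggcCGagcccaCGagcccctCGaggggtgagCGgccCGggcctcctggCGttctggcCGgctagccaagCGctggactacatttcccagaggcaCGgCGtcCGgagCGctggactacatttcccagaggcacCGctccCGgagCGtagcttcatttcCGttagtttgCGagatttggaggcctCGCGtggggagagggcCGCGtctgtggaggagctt
ZNF528: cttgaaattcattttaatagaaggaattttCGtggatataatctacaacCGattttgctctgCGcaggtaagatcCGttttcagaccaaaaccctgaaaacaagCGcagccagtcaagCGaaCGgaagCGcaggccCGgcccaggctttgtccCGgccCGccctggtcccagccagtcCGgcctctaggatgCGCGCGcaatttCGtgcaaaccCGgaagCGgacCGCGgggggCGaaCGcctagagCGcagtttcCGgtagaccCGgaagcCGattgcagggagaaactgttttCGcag
ZNF257: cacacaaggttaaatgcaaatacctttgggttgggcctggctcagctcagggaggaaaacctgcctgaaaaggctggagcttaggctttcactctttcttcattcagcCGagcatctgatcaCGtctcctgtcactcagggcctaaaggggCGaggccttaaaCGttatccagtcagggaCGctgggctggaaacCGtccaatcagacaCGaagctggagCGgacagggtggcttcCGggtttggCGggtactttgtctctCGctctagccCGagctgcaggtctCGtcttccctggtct
ZNF723: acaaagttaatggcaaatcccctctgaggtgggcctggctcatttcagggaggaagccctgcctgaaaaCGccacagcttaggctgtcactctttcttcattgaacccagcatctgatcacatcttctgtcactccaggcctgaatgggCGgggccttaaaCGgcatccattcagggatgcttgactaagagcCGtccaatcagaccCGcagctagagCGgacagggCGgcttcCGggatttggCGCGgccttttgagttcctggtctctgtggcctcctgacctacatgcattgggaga
These windows hold 16 CG dinucleotides for ZNF560, 23 for ZNF229, 30 for ZNF420 and 27 for ZNF528, and 13 for ZNF257 and 10 for ZNF723. The median over all 27305 RefSeq windows of this length is 14. The number does not part reopened from other genes. Of the reopened genes of ZNF101 to ZNF254, ZNF486 has 10, ZNF91 has 11 and ZNF14 has 16. The silent genes ZNF541 and ZNF667, which were not called reopened, have 49 and 42, although ZNF541 was higher with DCB over the 5 lines.

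To find which genes were off before treatment, a gene was called silent in a line when both of its DMSO libraries were below 3 normalized counts. By this limit 68 of the 250 genes (27.2%) were silent in at least 1 line and 182 in none. Of the 68, 26 were silent in exactly 1 line, 14 in 2, 9 in 3, 10 in 4 and 9 in all 5 lines. YCCEL1 had 43 silent genes, AGS 42, SNU16 32, HGC27 26 and SNU719 23. Over all protein-coding genes the share that was silent was larger, from 27.9% in HGC27 to 35.3% in YCCEL1, against 10.4% and 17.2% of the ZNF genes in these lines. The CIMP+ lines had a mean of 36.0 silent genes and the CIMP- lines 29.0 (difference 7.0, exact two-sided permutation test over 5 lines, p = 0.6), and the EBV+ lines had 33.0 against 33.3 in the EBV- lines (p = 1.0 in the same exact test). With 5 lines this test cannot reach 0.05.

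Silence was unevenly spread over the clusters. In ZNF101 to ZNF254, 17 of 37 genes were silent in at least 1 line, in ZNF175 to ZNF331 15 of 40 and in ZNF628 to ZNF446 16 of 59. ZNF653 to ZNF791 had 6 of 26, ZNF565 to ZNF573 6 of 27, ZNF557 to ZNF846 3 of 16 and ZNF575 to ZNF296 2 of 24, while no gene of ZNF554 to ZNF77 or ZNF302 to ZNF792 was silent in any line. Among the scattered genes, ZNF536, ZNF541 and ZNF114 were silent in at least 1 line.

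**Figure D1:**
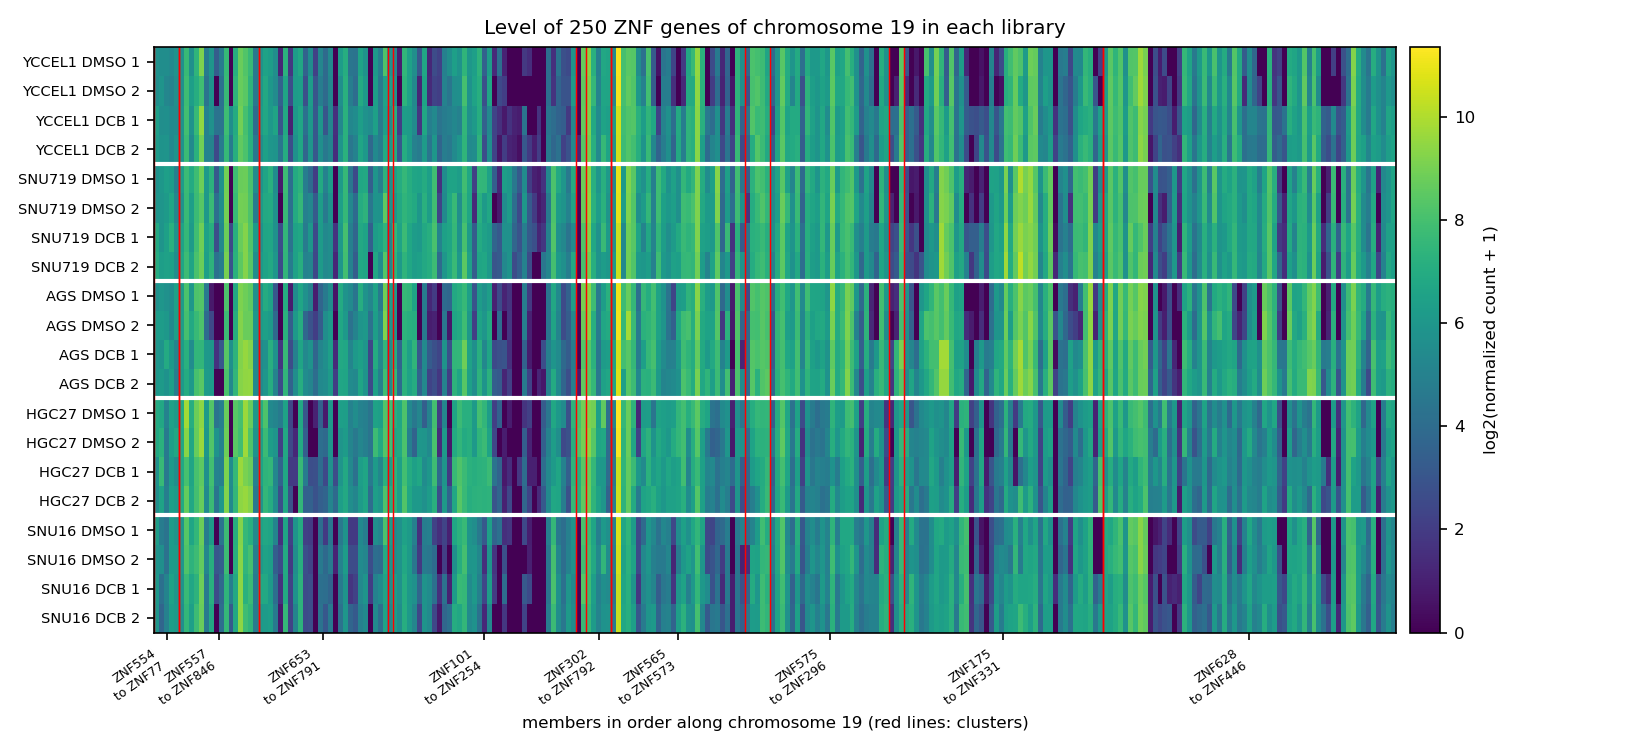
Level of each of the 250 genes, as log2(normalized count + 1) in color, in the 20 libraries (rows) against the order of the genes along chromosome 19 (columns), with red lines at the cluster borders and white lines between cell lines. The dark block inside ZNF101 to ZNF254 is seen under both treatments in YCCEL1, AGS, HGC27 and SNU16, with 12, 13, 7 and 10 genes of this cluster silent in DMSO, against 4 in SNU719.

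The longest run of silent neighbors was found in YCCEL1, where the 8 consecutive genes from ZNF676 to ZNF730 in ZNF101 to ZNF254 were all silent. AGS had 2 runs of 4 in the same stretch, ZNF257 to ZNF98 and ZNF99 to ZNF730, HGC27 was silent from ZNF257 to ZNF98, and SNU16 from ZNF99 to ZNF730. Outside it, AGS had a run of 5 in ZNF175 to ZNF331, from ZNF480 to ZNF534, and YCCEL1 a run of 4 from ZNF610 to ZNF534. Over the 37 genes of ZNF101 to ZNF254 the median DMSO level was 8.25 normalized counts in YCCEL1, 10.2 in AGS, 24.5 in SNU16, 35.1 in HGC27 and 76.8 in SNU719.

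To ask which silent genes reopened, a gene was called reopened in a line when it was silent in DMSO, both DCB libraries reached 10 normalized counts, and it was higher with DCB at an adjusted p below 0.05 (limma, Benjamini-Hochberg over 27350 genes). In libraries made from whole cultures a rise in every cell and a rise in some cells cannot be told apart. Of the 250 genes, 24 reopened in at least 1 line: 20 in a single line, ZNF114 and ZNF813 in 2 lines, ZNF560 in 3 and ZNF229 in 4. In all, 31 of the 166 pairs of a silent gene and a line reopened, and in 51 pairs both DCB libraries also stayed below 3. The limit on the adjusted p removed no pair, as 31 pairs met the limits of 3 and 10 at any p. For genes chosen by these limits, the p-values below are no separate evidence of reopening. The fit per line takes 1 spread for each gene from all 10 groups of line and treatment. Groups listed at 0 in both libraries add nothing to that spread, which can make the SE and p-values of such genes too small. No gene went the other way, from 10 or more in both DMSO libraries of a line to below 3 in both DCB libraries.

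AGS reopened 15 of its 42 silent genes, where 10.3% of all its silent protein-coding genes reopened, and YCCEL1 reopened 11 of 43, with 8.02% of its silent protein-coding genes. SNU16 reopened 3 of 32 (2.03% of silent protein-coding genes), all 3 of which (ZNF229, ZNF331 and ZNF813) lost their call when SNU16 was fitted alone. SNU719 reopened 1 of 23 (5.95%) and HGC27 1 of 26 (4.6%). Thus 35.7% of the silent ZNF genes of AGS and 25.6% of those of YCCEL1 reopened, while the silent ZNF genes of other chromosomes reopened in 4.88% and 8.51% of cases and other silent protein-coding genes of chromosome 19 in 14.4% and 11.1%. These shares were compared without a test. The count depends on the limit of 10: with 20 in its place 14 genes reopened in at least 1 line, and without YCCEL1 DMSO replicate 1 YCCEL1 reopened 17. When any 1 of its own libraries was left out SNU719 reopened 2 to 4, HGC27 reopened 4 without HGC27 DCB replicate 1, 3 without DCB replicate 2 and 2 without DMSO replicate 2, and SNU16 reopened 5 without SNU16 DCB replicate 2.

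**Figure D2:**
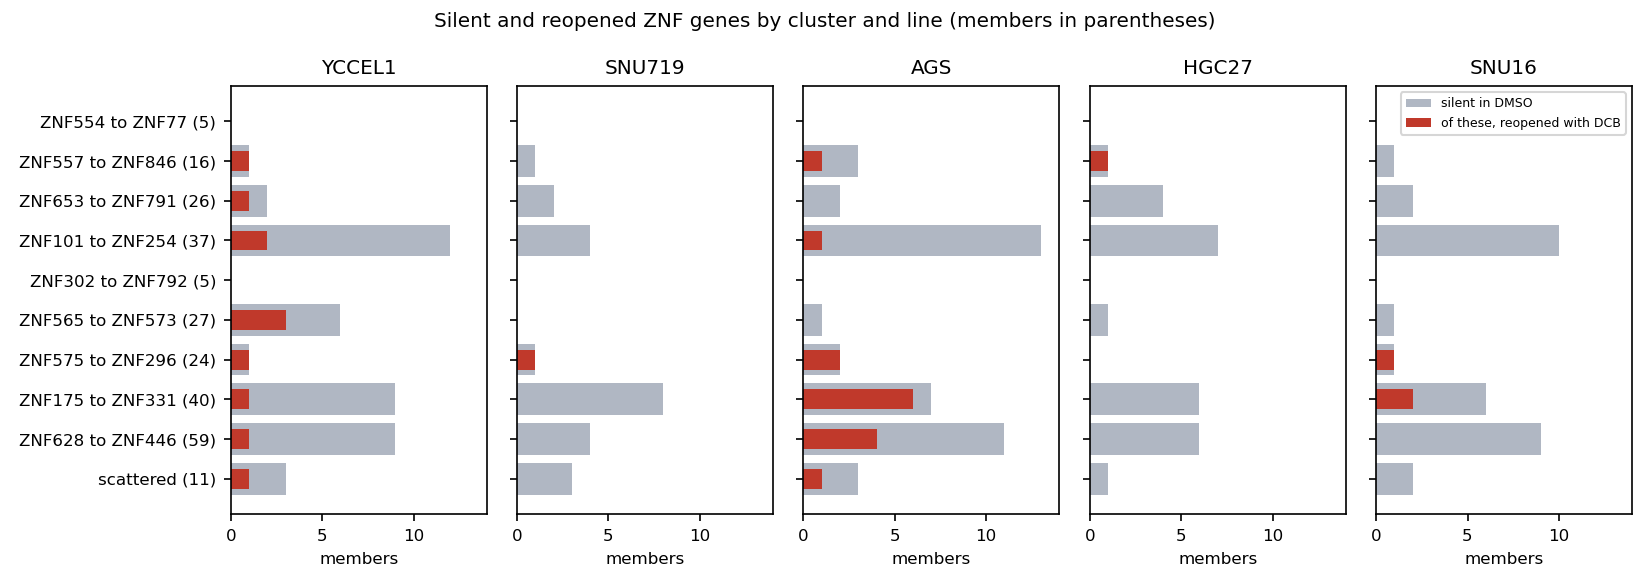
Number of genes silent in DMSO (gray bars) and, of these, reopened with DCB (red bars) in each cluster, 1 panel per line, with the number of genes in the cluster in parentheses. In ZNF175 to ZNF331, 6 of the 7 genes silent in AGS reopened, and in ZNF101 to ZNF254 1 of 13 did. Of all silent protein-coding genes of AGS, 10.3% reopened.

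The clusters with most silent genes differed in how many reopened. In ZNF101 to ZNF254, 46 pairs of a gene and a line were silent and 3 reopened, and none of the runs of silent neighbors named above for this cluster held a reopened gene. In ZNF175 to ZNF331, 36 pairs were silent and 9 reopened, in 8 genes. ZNF628 to ZNF446 had 39 silent and 5 reopened pairs, ZNF653 to ZNF791 12 and 1, ZNF565 to ZNF573 9 and 3, ZNF557 to ZNF846 7 and 3, and ZNF575 to ZNF296 5 and 5. ZNF101 to ZNF254 reopened 16.7% of its silent genes in YCCEL1 (2 of 12), 7.69% in AGS (1 of 13) and none elsewhere. For ZNF175 to ZNF331 the shares were 11.1% in YCCEL1 (1 of 9), 85.7% in AGS (6 of 7) and 33.3% in SNU16 (2 of 6). In SNU719 0 of 8 silent genes of this cluster reopened, and in HGC27 0 of 6. The SNU16 calls (ZNF331 and ZNF813) were lost when that line was fitted alone, and in YCCEL1 the share was below that of ZNF101 to ZNF254. Over all silent protein-coding genes the share was 8.02% in YCCEL1, 10.3% in AGS, 5.95% in SNU719, 4.6% in HGC27 and 2.03% in SNU16. ZNF101 to ZNF254 was thus above this share in YCCEL1 and below it in the other lines, on few genes. Over the 5 lines together (limma with line as covariate), 13 genes of ZNF175 to ZNF331 were higher with DCB and 1 was lower, compared with 6 higher and none lower in ZNF101 to ZNF254, 13 and 4 in ZNF628 to ZNF446, and 1 and 5 in ZNF575 to ZNF296. As a share of the cluster, the higher genes came to 32.5% in ZNF175 to ZNF331, 16.2% in ZNF101 to ZNF254, 22.0% in ZNF628 to ZNF446 and 4.17% in ZNF575 to ZNF296, where 17.9% of all genes tested and 21.7% of protein-coding genes were higher, so that the shares of ZNF101 to ZNF254 and ZNF628 to ZNF446 lay near the background.

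Genes that reopened in several lines came first. ZNF560 was listed at 0 in all 10 DMSO libraries and was detected in all 10 DCB libraries. Its DCB values were 46.5 and 24.4 in YCCEL1, 4.42 and 6.53 in SNU719, 49.9 and 37.8 in AGS, 43.5 and 41.0 in HGC27 and 27.2 and 8.22 in SNU16, so that no DCB library overlapped a DMSO library. Over the 5 lines the difference was 4.54 on the log2(value + 1) scale (SE 0.33, adjusted p = 4e-08, limma), the smallest adjusted p of any of the 250 genes. For genes listed at 0 in DMSO, such differences depend on the added count of 1 and are no fold change.

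With DMSO, ZNF229 was listed at 0 in both libraries of YCCEL1, SNU719 and AGS and was at 1.66 and 1.73 in SNU16, but in HGC27 it was already on, at 39.8 and 126. With DCB it reached 22.2 and 13.8 in YCCEL1, 22.1 and 11.2 in SNU719, 66.0 and 143 in AGS and 34.2 and 31.9 in SNU16. HGC27 stayed at 41.8 and 89.1, within the range of its DMSO libraries. The difference on the log2 scale was 6.62 (SE 0.56, adjusted p = 9.5e-07) in AGS, 4.21 (adjusted p = 9.1e-05) in YCCEL1, 4.07 (adjusted p = 0.00012) in SNU719 and 3.66 (adjusted p = 0.001, a call lost when SNU16 was fitted alone) in SNU16 by limma. ZNF229 was the only gene that reopened in SNU719. Its neighbor ZNF285 reopened in AGS alone, from 1.26 and 1.58 to 23.8 and 32.1 (log2 difference 3.57, SE 0.29, adjusted p = 6.4e-07), and was at 16.1 or more in every DMSO library of the other lines.

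ZNF114, a scattered gene, rose in AGS from 1.76 and 1.10 to 180 and 163 (log2 difference 6.16, SE 0.35, adjusted p = 2.2e-08, limma) and in YCCEL1 from 0 and 0.979 to 17.0 and 23.7 (3.91, SE 0.35, adjusted p = 2.6e-06). In SNU719 it rose from 0 in both libraries to 5.77 and 8.18, which is below the limit of 10. HGC27 at 62.3 and 69.1 and SNU16 at 31.8 and 34.1 expressed it in DMSO. The 2 lines without the methylator phenotype were thus the 2 in which ZNF114 was on before treatment.

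**Figure D3:**
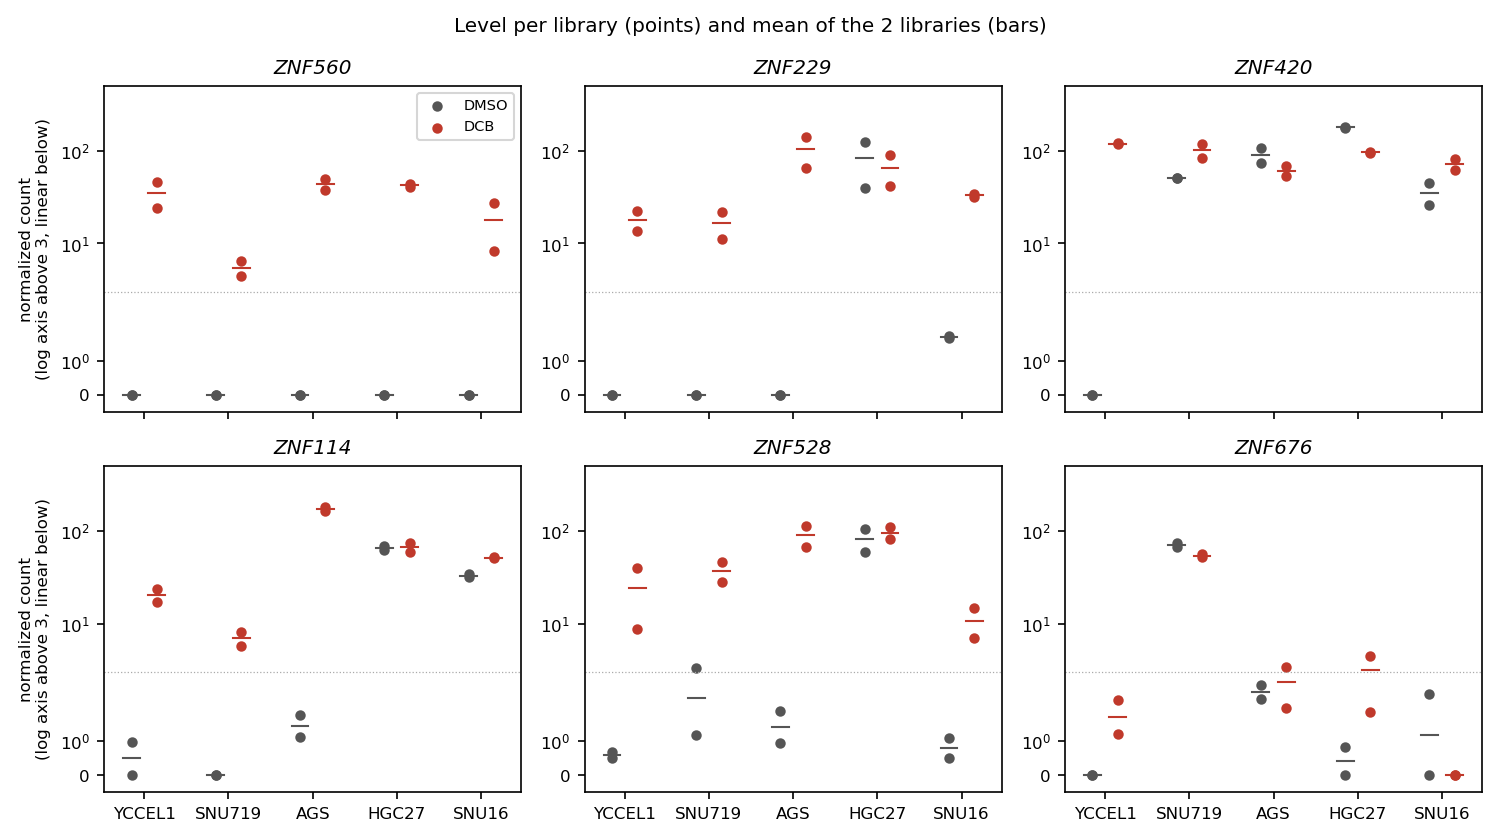
Normalized counts of 6 genes in every library (points; bars are the mean of the 2 libraries of a group), with DMSO in gray and DCB in red; the axis is logarithmic above 3 and linear below, and the dotted line marks 3. ZNF560 was listed at 0 in all DMSO libraries and was above 0 in all DCB libraries, while ZNF676 stayed below 3 with DCB in YCCEL1 and was on in SNU719 under both treatments.

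In ZNF565 to ZNF573, 6 genes were silent in YCCEL1, and all but ZNF781 were silent in no other line. ZNF420, which encodes a KRAB zinc finger protein known to act on p53, had a listed value of 0 in YCCEL1 under DMSO, in both libraries, and was at 120 and 119 with DCB (log2 difference 6.92, SE 0.28, adjusted p = 1.2e-09, limma). In the other lines its DMSO values lay between 25.8 in SNU16 and 182 in HGC27, and with DCB it fell in HGC27, from 176 and 182 to 95.6 and 97.2 (adjusted p = 0.036). ZNF585A, whose span overlaps that of ZNF420, went from 2.84 and 1.47 to 27.1 and 27.9 in YCCEL1 (log2 difference 3.21, SE 0.40, adjusted p = 5.2e-05). ZNF569 went from 0 in both libraries to 23.0 and 14.8 (4.28, SE 0.73, adjusted p = 0.00077). Of the other genes of this cluster that were silent in YCCEL1, ZNF790 rose to 3.60 and 11.4 (adjusted p = 0.00017), below the limit in 1 library, and ZNF540 was at 2.58 and 4.69 with DCB (adjusted p = 0.45). ZNF781, which was also silent in AGS, HGC27 and SNU16, shares 93.5% of its 76-base windows with other genes, and its values are therefore uncertain. In this cluster 10 genes rose and 1 fell in YCCEL1, and the median level went from 27.0 to 68.2 normalized counts. These are 37.0% and 3.7% of the cluster. In the same line 14.6% and 6.93% of all genes tested, and 17.5% and 10.1% of protein-coding genes, rose and fell.

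In ZNF175 to ZNF331 the reopening was mostly that of AGS. The run of 5 silent neighbors there comprised ZNF480, ZNF610, ZNF880, ZNF528 and ZNF534, of which all but ZNF610 reopened. ZNF528 went in AGS from 0.937 and 1.87 to 68.1 and 114 (log2 difference 5.24, SE 0.62, adjusted p = 2.4e-05), ZNF880 from 0 in both to 29.3 and 43.8 (5.20, SE 0.40, adjusted p = 3.8e-07) and ZNF534 from 0 in both to 24.7 and 11.3 (4.15, SE 0.41, adjusted p = 4.7e-06, all limma). ZNF480 went from 0 and 1.64 to 45.0 and 12.04 (adjusted p = 0.0029). ZNF610 was at 0 and 0.842 in DMSO and at 0 and 0.724 with DCB, and it did not pass the test in any line.

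With DCB, ZNF528 and ZNF534 stayed below their AGS levels in YCCEL1, SNU719 and SNU16. ZNF528 reached 8.72 and 39.7 in YCCEL1 (adjusted p = 0.00074) and 14.7 and 7.06 in SNU16 (adjusted p = 0.02), so that 1 library in each was below 10, and 28.3 and 46.6 in SNU719 from 1.18 and 3.33 (adjusted p = 0.00085). ZNF534 was listed at 0 in every DMSO library of the 5 lines. It reached 5.65 and 6.30 in YCCEL1 and 5.70 and 5.04 in SNU719, whereas in SNU16 it was at 0.812 and 0 with DCB (adjusted p = 0.69). ZNF880 was at 5.64 and 4.24 with DCB in YCCEL1 and 9.90 and 10.7 in SNU719.

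At the ends of the same cluster, ZNF649 reopened in AGS (0 in both to 15.7 and 34.0, adjusted p = 9.6e-06) and ZNF577, whose span overlaps that of ZNF649, in YCCEL1 (0 in both to 17.2 and 17.0, adjusted p = 0.00062). ZNF813 reopened in AGS, from 2.68 and 1.12 to 71.5 and 93.4 (log2 difference 4.89, SE 0.72, adjusted p = 0.00016), and in SNU16, from 0 in both to 10.9 and 22.7 (4.07, SE 0.72, adjusted p = 0.0033), where the call was lost when the line was fitted alone. It also passed the test in YCCEL1, SNU719 and HGC27, and over the 5 lines its difference was 3.42 (SE 0.37, adjusted p = 4.8e-06). ZNF331, a gene known to be imprinted and often methylated in gastric tumors, was at 0 under DMSO in SNU16 and reached 25.8 and 69.3 (5.44, SE 0.55, adjusted p = 2.9e-05), a call that was lost when SNU16 was fitted alone. In YCCEL1 it went from 3.47 and 0 to 83.9 and 71.2 (adjusted p = 1.1e-05), and it rose in AGS and HGC27 from DMSO levels of 43.3 or more, while SNU719 showed no call at 42.0 and 60.7 in DMSO and 65.4 or more with DCB (adjusted p = 0.63).

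**Figure D4:**
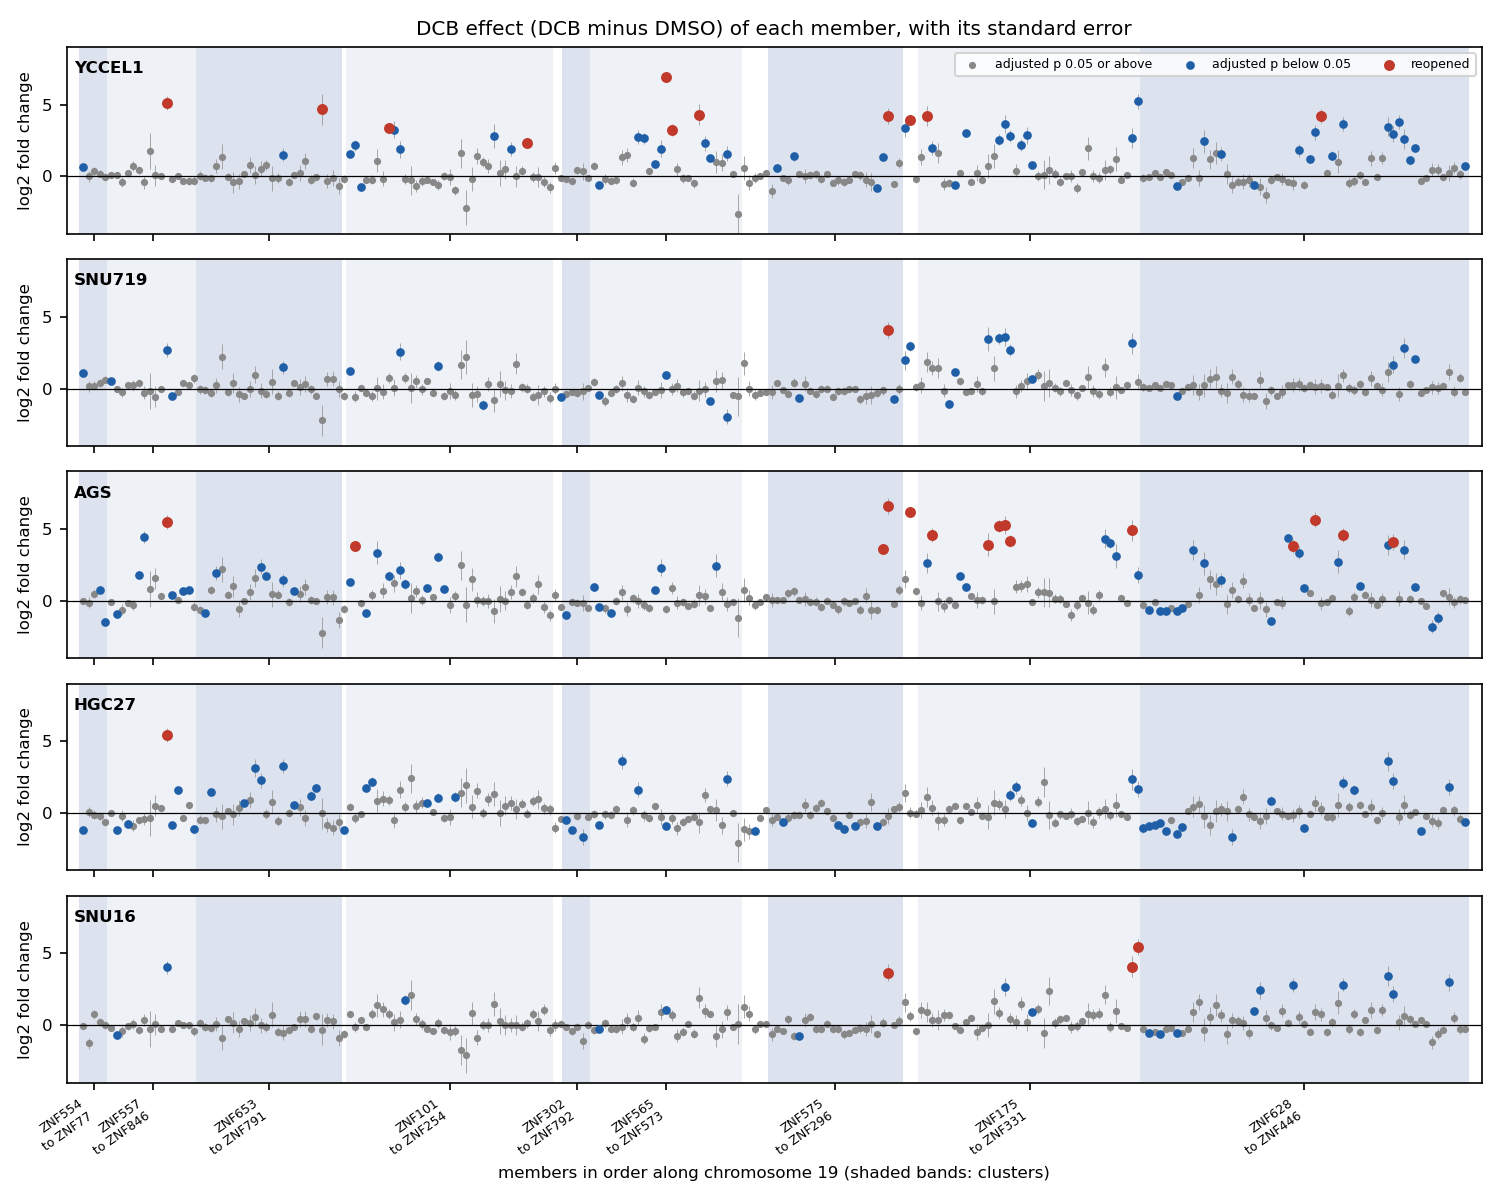
DCB effect (log2 fold change on the log2(value + 1) scale, points, with the standard error as lines) of each gene in order along chromosome 19, 1 panel per line, with genes past an adjusted p of 0.05 in blue and reopened genes in red. AGS has 6 reopened genes in ZNF175 to ZNF331, and HGC27 has calls on both sides of 0, with 28 genes higher and 29 lower.

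At the end of the long arm, in ZNF628 to ZNF446, ZNF671, ZNF256, ZNF530 and ZNF773 reopened in AGS and ZNF134 in YCCEL1. ZNF671, often methylated in carcinomas, was at 1.137 or below in all 10 DMSO libraries and reached 21.1 and 24.97 in AGS (log2 difference 4.58, SE 0.47, adjusted p = 5.7e-06), 19.01 and 6.95 in YCCEL1 (adjusted p = 6.4e-05) and 1.75 and 1.78 in SNU719 (adjusted p = 0.2). ZNF256 went from 0.979 and 1.23 to 28.2 and 42.4 in AGS (4.08, SE 0.56, adjusted p = 8.4e-05), and ZNF530 from 0 in both to 50.5 and 46.8 (5.63, SE 0.53, adjusted p = 2.9e-06). ZNF134 reached, from a listed 0 under DMSO in YCCEL1, 18.9 and 15.7 (4.19, SE 0.48, adjusted p = 2.3e-05). It was at 29.8 or more in every library of the other lines.

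In ZNF101 to ZNF254, the 3 genes that reopened lay outside these runs of neighbors. ZNF91, which encodes a KRAB protein known to repress SVA elements, went in YCCEL1 from 2.01 and 2.26 to 15.9 and 12.9 (log2 difference 2.29, SE 0.31, adjusted p = 0.00012), and its values in the other lines lay between 59.9 and 308. ZNF486 went in YCCEL1 from 1.41 and 1.58 to 29.0 and 20.5 (3.35, SE 0.34, adjusted p = 8.6e-06), and ZNF14 in AGS from 0 in both to 11.8 and 14.4 (3.81, SE 0.36, adjusted p = 2.9e-06). No gene of the runs named above reopened, but not all silent genes of the cluster stayed below 3 in both DCB libraries. Those that did were 6 of 12 in YCCEL1, 4 of 13 in AGS, 5 of 7 in HGC27, 7 of 10 in SNU16 and 1 of 4 in SNU719. ZNF676, in the YCCEL1 run, had values of 0 under DMSO and of 2.19 and 1.19 with DCB (adjusted p = 0.084), yet SNU719 held it at 67.8 and 74.2 in DMSO. ZNF729 was listed at 0 in all 4 libraries of AGS, of HGC27 and of SNU16 and was at 22.2 and 16.4 in DMSO in SNU719, where it fell to 12.5 and 5.28 (adjusted p = 0.034). ZNF257, whose promoter window is printed above, was at 82.2 and 44.5 in DMSO in SNU719, while in AGS it was at 1.19 and 0 in DMSO and at 6.68 and 1.28 with DCB (adjusted p = 0.21). ZNF676, ZNF729 and ZNF257 were chosen for display after their values were seen.

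The 9 genes silent in all 5 lines were ZNF560, ZNF625, ZNF723, ZNF728, ZNF541, ZNF534, ZNF671, ZNF418 and ZNF135. ZNF560, ZNF534 and ZNF671 reopened in at least 1 line. The other 6 never reached 10 in both DCB libraries of a line, but ZNF418 and ZNF541 were among the 10 higher genes with the smallest adjusted p over the 5 lines. ZNF418 was listed at 0 in all 10 DMSO libraries and lay between 0.803 and 24.4 with DCB (log2 difference 3.10, SE 0.36, adjusted p = 1.2e-05), and ZNF541 lay between 1.85 and 15.4 with DCB (1.96, SE 0.32, adjusted p = 0.00025). ZNF723 and ZNF728 were at or below 5.76 in every library. ZNF625 shares 79.3% of its 76-base windows with other genes, and the same holds for ZNF709 (79.1%), the 1 gene of ZNF653 to ZNF791 that reopened, in YCCEL1, from 0 in both libraries to 44.2 and 13.1 (adjusted p = 0.0065). The call of ZNF709 was lost without YCCEL1 DCB replicate 1 and when YCCEL1 was fitted alone.

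Not all responses started from silence. In AGS 56 of the 250 genes were higher and 15 lower with DCB (limma, adjusted p below 0.05), where 18.5% and 9.13% of all genes tested were higher and lower. In YCCEL1 54 were higher and 6 lower (14.6% and 6.93% of all genes), in SNU719 21 and 10 (13.5% and 7.64%), in HGC27 28 and 29 (14.7% and 9.03%) and in SNU16 15 and 6 (4.5% and 2.34%). As a share of the 250, the higher genes made up 22.4% in AGS, 21.6% in YCCEL1, 11.2% in HGC27, 8.4% in SNU719 and 6.0% in SNU16. Of protein-coding genes alone, 23.5% were higher in AGS, 17.5% in YCCEL1, 19.5% in HGC27, 17.4% in SNU719 and 5.48% in SNU16. Against these, the share of the 250 was larger in YCCEL1, smaller in HGC27 and SNU719 and near the background in AGS and SNU16. Of the other protein-coding genes of chromosome 19, 26.5% were higher in AGS and 22.9% in YCCEL1. Leaving out any 1 of the line's own 4 libraries brought the lower genes to between 1 and 3 in YCCEL1, between 4 and 6 in SNU719 and between 0 and 2 in SNU16, and those of SNU16 also came to 2 or 3 without most single libraries of YCCEL1, SNU719 or AGS. It brought those of AGS to 9 without AGS DCB replicate 2, and brought the higher genes of HGC27 to 18 without HGC27 DMSO replicate 2 or DCB replicate 2.

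Over the 5 lines 43 genes were higher and 20 lower, where 17.9% and 6.94% of all genes were, and the median log2 difference was 0.15 among the 250 and 0.15 among all genes tested. The 43 higher genes are 17.2% of the 250, where 21.7% of protein-coding genes, 29.5% of the other protein-coding genes of chromosome 19 (325 of 1100) and 8.88% of the ZNF genes of other chromosomes (23 of 259) were higher. Lower were 8.0% of the 250, 9.95% of protein-coding genes, 8.73% of the other protein-coding genes of chromosome 19 and 15.4% of the ZNF genes of other chromosomes. Besides genes described above, ZNF101 at the start of its cluster was among the 10 higher genes with the smallest adjusted p. It rose in YCCEL1 from 38.5 and 56.0 to 141 and 134, in SNU719 from 89.1 and 64.5 to 186 and 170 and in AGS from 68.9 and 61.7 to 138 and 193, and over the 5 lines by 1.06 (SE 0.14, adjusted p = 3.9e-05). The lower genes with the smallest adjusted p were all expressed in DMSO. ZNF146, which encodes a protein made almost wholly of zinc fingers, fell in every line. In HGC27 it went from 2614 and 2398 to 1387 and 1441 and in YCCEL1 from 2324 and 2292 to 1545 and 1463, and over the 5 lines the log2 fold change was -0.52 (SE 0.06, adjusted p = 7.4e-06). In SNU16, where the change was smallest (1655 and 1582 to 1362 and 1357), its call was lost without SNU16 DMSO replicate 1, DCB replicate 1 or DCB replicate 2.

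ZNF581 fell in all 5 lines too, most in HGC27, from 251 and 228 to 82.2 and 93.7 (log2 fold change -1.44, SE 0.15, adjusted p = 9e-06), and its call in YCCEL1 was lost without YCCEL1 DMSO replicate 2. ZNF787 (-0.52, SE 0.10, adjusted p = 0.00086), ZNF112 (-0.65, SE 0.13, adjusted p = 0.0014) and ZNF302 (-0.44, SE 0.09, adjusted p = 0.0026) completed the 5 lower genes with the smallest adjusted p over the lines. ZNF302 fell most in AGS, from 657 and 640 to 336 and 328 (-0.96, SE 0.13, adjusted p = 0.0001). Single lines added ZNF615, which fell in SNU719 from 114 and 149 to 64.8 and 57.6 (-1.08, SE 0.27, adjusted p = 0.01), and ZNF865, which fell in SNU16 from 274 and 239 to 149 and 194 (-0.59, SE 0.15, adjusted p = 0.032). The call of ZNF615 was lost without SNU719 DMSO replicate 2 or DCB replicate 2, and that of ZNF865 without SNU16 DMSO replicate 1, DMSO replicate 2 or DCB replicate 1. ZNF146 overlaps ZNF565 and ZNF581 overlaps ZNF580.

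Whether the DCB effect differed with CIMP status was tested as the mean effect of the 3 CIMP+ lines minus that of the 2 CIMP- lines. The difference was positive for 39 genes and negative for 13, or 15.6% and 5.2% of the 250, where it was so for 12.8% and 8.94% of all genes tested. ZNF114 led the positive ones with 4.02 (SE 0.32, adjusted p = 9.8e-07, limma). ZNF274, which encodes a KRAB protein known to bring SETDB1 to zinc finger genes, came next: it rose in YCCEL1 from 15.8 and 18.8 to 73.7 and 66.2, in SNU719 from 18.9 and 19.3 to 94.5 and 75.0 and in AGS from 217 and 250 to 439 and 449, but was at 244 and 246 against 248 and 260 in HGC27 and at 284 and 289 against 311 and 293 in SNU16. Its difference between CIMP+ and CIMP- lines was 1.59 (SE 0.13, adjusted p = 1.5e-06). ZNF420 followed with 2.36 (SE 0.26, adjusted p = 1.8e-05), a value that averages a rise of 6.92 in YCCEL1 with 0.96 in SNU719 and -0.55 in AGS.

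On the negative side stood ZNF121 (-0.90, SE 0.11, adjusted p = 7.4e-05), ZNF253 (-1.27, SE 0.17, adjusted p = 0.0001) and ZNF443 (-1.38, SE 0.22, adjusted p = 0.0004). All 3 rose in HGC27, where ZNF121 went from 259 and 236 to 793 and 676, ZNF253 from 41.3 and 29.0 to 125 and 107, and ZNF443 from 28.7 and 28.9 to 101 and 99.99. ZNF253 also fell in AGS, from 179 and 141 to 83.6 and 93.8 (adjusted p = 0.0037). SNU16, the other CIMP- line, showed no call for any of them, with adjusted p of 0.64, 0.88 and 0.16.

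The mean effect of the EBV+ lines minus that of the EBV- lines was positive for 25 genes and negative for 16, or 10.0% and 6.4% of the 250, where it was so for 10.5% and 9.17% of all genes tested, so that the positive share lay near the background. This comparison and that by CIMP status share all their libraries. ZNF420 led with 4.07 (SE 0.26, adjusted p = 1.2e-07, limma), although in SNU719 its rise from 50.9 and 51.4 to 119 and 84.3 was smaller (0.96, adjusted p = 0.027). ZNF274 (1.67, SE 0.13, adjusted p = 9.7e-07) and ZNF554 (1.29, SE 0.19, adjusted p = 0.00025) were higher in both EBV+ lines. ZNF554 rose in SNU719 from 54.1 and 60.3 to 118 and 129 and fell in HGC27 from 120 and 115 to 54.8 and 49.3. On the negative side, ZNF419 (-1.53, SE 0.20, adjusted p = 0.00012) and ZNF773 (-2.25, SE 0.43, adjusted p = 0.0021) rose in AGS, ZNF419 from 4.80 and 4.24 to 99.4 and 133 and ZNF773 from 0 and 1.10 to 13.7 and 27.3. ZNF773 also rose in SNU16, from 4.07 and 1.70 to 26.3 and 22.4 (adjusted p = 0.0025), and it shares 25.8% of its windows with other genes. ZNF121 (-0.71, SE 0.11, adjusted p = 0.00056) was again on this side.

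The partners through which these proteins act were looked at next. None of the 14 genes listed for the KRAB corepressor complex, SETDB1 among them, was higher over the 5 lines and 2 were lower. Of 8 genes listed for histone H3 lysine 9 methylation, a list that also holds ATRX, DAXX and HELLS, 4 were lower and none higher. Of 5 genes of the HUSH complex and MORC family none passed the test. Over all genes tested 17.9% were higher and 6.94% lower. By line, 6 of the 14 corepressor genes rose and 1 fell in HGC27, where 14.7% and 9.03% of all genes did. In SNU719 7 fell and none rose, where 7.64% and 13.5% did. In YCCEL1 1 rose and 5 fell (14.6% and 6.93% of all genes) and in AGS 1 and 2 (18.5% and 9.13%). In SNU16 none passed the test. The EBV difference was negative for 7 of the 14 and positive for none (9.17% and 10.5% of all genes). The CIMP difference was negative for 9 and positive for none (8.94% and 12.8%). Of 8 genes tested from the list for DNA methylation, which also holds ZFP57, 2 were higher and 1 lower over the 5 lines. The 4 partners with the smallest adjusted p over the lines were ZFP57, DNMT3B, ATRX and EHMT2. ZFP57, a KRAB protein that keeps imprinted regions methylated, was listed at 0 in all 10 DMSO libraries and was at 18.5 and 13.0 with DCB in YCCEL1, 36.8 and 27.2 in AGS, 3.35 and 3.51 in SNU719, 6.77 and 9.29 in SNU16 and 2.53 and 1.81 in HGC27 (log2 difference 3.21, adjusted p = 2.8e-06, limma). DNMT3B, a de novo DNA methyltransferase, rose by 0.88 (adjusted p = 1.9e-05), while the chromatin remodeler ATRX fell by 0.52 (adjusted p = 0.0023) and EHMT2, which methylates histone H3 at lysine 9, by 0.37 (adjusted p = 0.0029) on the log2 scale.

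A list of 20 zinc finger genes of chromosome 19 whose symbols do not start with ZNF was also counted, 18 of which were in the expression table. The list was picked with earlier results of these data known and is not a full count of such genes. Of 15 such genes tested, 7 were higher and 2 lower over the 5 lines, with a median log2 difference of 0.79, where 17.9% of all genes tested and 29.5% of the other protein-coding genes of chromosome 19 were higher, 6.94% and 8.73% were lower, and the medians were 0.15 and 0.25.

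Promoter windows were found in the RefSeq table for 218 of the 250 genes, and for 175 of these the RefSeq start lies within 500 bases of the gene start in the expression table. The median number of CG dinucleotides was 20 over the 218, and 14 over all 27305 windows. It differed between clusters and was lowest in ZNF101 to ZNF254, at 10, with a range of 8 to 18 over 29 windows. It was highest in ZNF302 to ZNF792, at 26 over 4 windows, a cluster with no silent gene. ZNF175 to ZNF331 had a median of 25, with a range of 14 to 34 over 33 windows. ZNF554 to ZNF77, also with no silent gene, had 25 over 5 windows. The median was 23 in ZNF628 to ZNF446, 22 in ZNF565 to ZNF573, 19.5 in ZNF557 to ZNF846, 19 in ZNF575 to ZNF296 and 16 in ZNF653 to ZNF791. By response, the median was 20 for the 21 reopened genes with a window, 17.5 for the 34 that were silent in at least 1 line and reopened in none, and 20 for the 163 silent in no line. These counts describe the letters of the reference only, and no methylation value was analysed here.

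**Figure D5:**
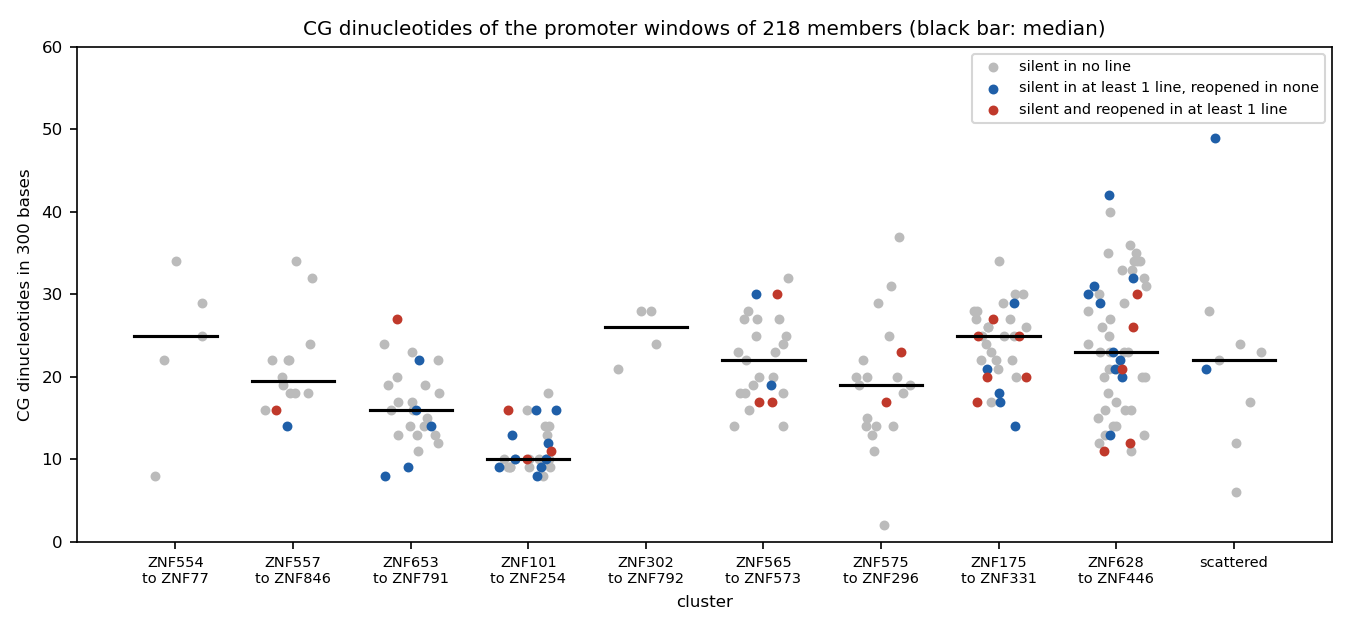
Number of CG dinucleotides in the 300-base promoter window of 218 genes by cluster (points; black bars are medians), colored by whether the gene was silent in no line, silent in at least 1 line and reopened in none, or silent and reopened. All windows of ZNF101 to ZNF254 have 18 or fewer, and all windows of ZNF175 to ZNF331 have 14 or more.

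The same windows were searched on both strands for 3 motifs: the cAMP response element (TGACGTCA), the NRF1 motif (GCGCNTGCG, with N for any base) and the YY1 motif (AAGATGGCG). Overlaps between the motifs were not counted. The first was in 3.21% of the 218 windows and in 1.98% of all windows, the second in 13.3% and 8.05%, and the third in 3.67% and 1.85%. The NRF1 motif was in 9 of the 34 windows of genes silent and not reopened, in 2 of the 21 of reopened genes and in 18 of the 163 of genes silent in no line, and in none of the 29 windows of ZNF101 to ZNF254. None of the 6 windows printed above holds any of the 3 motifs.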

How the data were processed

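The table deposited by the authors holds normalized estimated counts per gene for 20 libraries, a signal in no named unit, and depth in reads is not known. Per the labels the libraries were poly(A) selected, and the submitters' processing notes list GRCh37 as build and DESeq2 1.14.1, featureCounts 1.5.1 and STAR 2.5.2b as tools, while the study's methods name 3′ libraries and GRCh38. Coordinates were identical to GENCODE v44 (GRCh38) for 92.6% of 60064 genes and for 225 of the 250 members. No value column was left out.

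Members and lists were chosen with earlier results of these data known. Values were analyzed as log2(value + 1) for 27350 genes summing to more than 10 over the 20 libraries, with limma 3.58.1 (lmFit, eBayes with trend) in R 4.3.3 and Benjamini-Hochberg adjustment over all genes tested. Effects per line and their EBV and CIMP differences came from 1 fit of 10 groups, and effects over the lines from a fit with line as covariate. The fit was tested on simulated data, in which the changed genes were drawn from genes expressed in DMSO on average over the lines. Genes undetected in every DMSO library were not covered by it. Since the values are not counts, no count model was run. Silent means below 3 in both DMSO libraries, and reopened adds 10 or more in both DCB libraries and an adjusted p below 0.05.

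Named genes were, per line, the 4 reopened and 2 lower genes with the smallest adjusted p, over the lines 10 higher and 5 lower, 3 on each side for each status difference, up to 3 reopened per cluster, and 4 partners. Genes named outside this rule were chosen after their values were seen. Windows of 76 bases of GENCODE transcripts found in another gene gave the shared shares. Promoters came from RefSeq (GRCh38.p14). Within a line, same-numbered libraries correlated between -0.024 and 0.025 in their deviations from the group means over 14056 genes, so the numbers were not taken as pairs. Python 3.11.15, pandas 2.3.3, scipy 1.17.1 and matplotlib 3.10.9 were used.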

Additional observations from a re-analysis of the deposited data

Results flagged for a closer look

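DCB effects that differed between groups of lines by a test of the difference itself are collected here (limma, adjusted over 27350 genes). Between EBV+ and EBV- lines the effect was larger for 25 genes and smaller for 16 (10.0% and 6.4% of the 250, where 10.5% and 9.17% of all genes tested were, so that neither count exceeds the background), and ZNF420 (4.07), ZNF274 (1.67), ZNF554 (1.29), ZNF419 (-1.53), ZNF121 (-0.71) and ZNF773 (-2.25) had the smallest adjusted p, as log2 differences. Between CIMP+ and CIMP- lines it was larger for 39 genes and smaller for 13 (15.6% and 5.2%, where 12.8% and 8.94% of all genes were), and ZNF114 (4.02), ZNF274 (1.59), ZNF420 (2.36), ZNF121 (-0.90), ZNF253 (-1.27) and ZNF443 (-1.38) had the smallest adjusted p. A single line sets several of these values: ZNF420 by YCCEL1, ZNF419 by AGS, and ZNF121, ZNF253 and ZNF443 by HGC27, as their values per library above show. With 2 or 3 lines per status, line and status cannot be told apart.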

How the results depend on the processing

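The smallest p of the permutation tests over lines is far from 0.05 by design. Libraries were 2 per group, and an adjusted p for a line or a status difference covers only their spread. An adjusted p over the 5 lines also takes in how the effect differed between lines. With a log2 fold of 2 also required, higher and lower genes came to 33 and 0 in YCCEL1, 11 and 0 in SNU719, 33 and 0 in AGS, 11 and 0 in HGC27, 0 lower in SNU16, 14 and 0 over the 5 lines, 1 and 1 for the EBV difference and 12 and 0 for the CIMP difference. With each line fitted alone, which leaves fewer samples, higher genes came to 25 in YCCEL1, 31 in AGS, 10 in HGC27 and 4 in SNU16, and lower ones to 5 in SNU719, 7 in HGC27 and 0 in SNU16. The 6 lower genes of SNU16 came to 2 with no filter, 2 with upper-quartile rescaling and 0 with no trend. With the replicate number as a block (replicate block), for numbers that do not pair the samples, they came to 2 and the lower genes over the 5 lines to 12; other counts stayed within 1.5 times, and no reopened count changed. Why these counts moved was otherwise not tested.

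Silent below 1 gave 15 silent genes in SNU719, 27 in AGS and 16 in HGC27, 8 reopened in AGS, 1 reopened in ZNF101 to ZNF254, 1 silent and 1 reopened in ZNF575 to ZNF296, and 10 silent and 3 reopened in ZNF628 to ZNF446. Silent below 10 gave 71 silent and 23 reopened genes in YCCEL1, 39 and 4 in SNU719, 23 reopened in AGS, 41 and 2 in HGC27, 58 and 6 in SNU16, and 43 genes reopened in at least 1 line. By cluster it gave 2 reopened in ZNF557 to ZNF846, 10 silent and 2 reopened in ZNF653 to ZNF791, 7 reopened in ZNF101 to ZNF254, 10 silent and 7 reopened in ZNF565 to ZNF573, 5 silent in ZNF575 to ZNF296 and 10 reopened in ZNF628 to ZNF446. The EBV difference in silent genes turned from -0.33 to 1.83 below 1 and 3.67 below 10.

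With reopening at 5 or more, 21 genes reopened in YCCEL1, 5 in SNU719, 5 in HGC27, 6 in SNU16, 4 in ZNF653 to ZNF791, 5 in ZNF101 to ZNF254 and 11 in ZNF628 to ZNF446. At 20 or more, 4 did in YCCEL1, 0 in SNU719, 14 in at least 1 line, 0 in ZNF653 to ZNF791, 1 in ZNF101 to ZNF254, 4 in ZNF175 to ZNF331 and 3 in ZNF628 to ZNF446. Starts less than 0.5 Mb apart made 10 clusters, with 9 silent genes in that of ZNF628 to ZNF446. Less than 2 Mb apart made 6, in which the cluster holding ZNF557 to ZNF846 and ZNF653 to ZNF791 had 9 silent and 2 reopened, that holding ZNF302 to ZNF792 had 6 and 3, and that holding ZNF175 to ZNF331 and ZNF628 to ZNF446 had 33 and 14.

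Leaving out 1 library at a time, lower genes ranged from 1 to 7 in YCCEL1, 4 to 14 in SNU719, 9 to 17 in AGS, 0 to 7 in SNU16, 13 to 19 over the 5 lines and 9 to 21 for the EBV difference (13 and 9 without SNU719 DCB replicate 1), and higher genes of HGC27 from 18 to 29. Reopened genes, which then needed only 1 library to pass in the group concerned, ranged from 12 to 17 in YCCEL1, 2 to 4 in SNU719, 3 to 5 in SNU16, 1 to 4 in HGC27, 1 to 2 in ZNF557 to ZNF846 and 0 to 3 in ZNF653 to ZNF791, and silent genes of ZNF575 to ZNF296 from 2 to 4. Of the values of single named genes, none changed sign under any alternative run. A call was lost in 22 pairs of a value and a run, and some calls were lost in several runs. Among these pairs were ZNF331, ZNF229 and ZNF813 in SNU16 when it was fitted alone.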
